A study of Mus musculus with 7 samples.

Results

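VH5-4, VH5-6 and VH5-9 (Ighv5-4, Ighv5-6 and Ighv5-9) are the 3 functional VH5 family segments that lie nearest upstream of VH81X in the mouse immunoglobulin heavy chain locus (Igh). Their joins were taken by position: junctions in deletional orientation on chromosome 12 inside 1 fixed window per segment, with no measured value in the choice. The windows held 5868 of the 95203 V junctions in 7 libraries, with 3762 in VH5-4, 1892 in VH5-6 and 214 in VH5-9, and the 3 segments are 3 of the 158 V segments found. HTGTS (high-throughput genome-wide translocation sequencing) starts from a bait, the JH4 coding end, and reads which DNA was joined to it. The DNA came from pro-B cells of bone marrow, sorted as B220+CD43highIgM- from mice 4 to 6 weeks old on the 129SVE background. The labels name 2 genotypes, WT (n = 3 libraries) and VH81X-CBEscr/scr (n = 4). CBE stands for CTCF-binding element in the series title, and the genotype name is read here as a scrambled element beside VH81X on both alleles, which the labels do not spell out. Junctions in DNA carry no expression markers, so the sorted cell type was not checked against marker genes. Whether the libraries came from separate mice is not stated, so a p-value here reflects no more than the spread among these libraries, which may be technical. The limma-voom p-values rest on a variance pooled, in full or in part, over the V segments. They do not measure the spread of 1 segment alone.

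Pro-B cells assemble the heavy chain gene in steps, D to JH first and then VH to DJH. The RAG enzyme cuts between each segment and its recombination signal sequence, a heptamer and a nonamer set apart by a spacer. The cut frees a coding end, which is trimmed and extended before it is joined, and a signal end. RAG bound at the DJH segment reaches VH segments as chromatin is moved past it, and CTCF bound at the elements beside proximal VH segments can hold a segment there. VH81X is the best known member of the VH5 family, called VH7183 in older work, and is the functional segment nearest to the D segments. VH2 and VH5 segments alternate in the stretch upstream of it.

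The 3 segments lie on the reverse strand of chromosome 12 (mm9) with coding ends at 114855361 for VH5-4, 114883413 for VH5-6 and 114919648 for VH5-9. These ends are 18.98, 47.04 and 83.27 kb upstream of that of VH81X. VH5-4 and VH5-6 are 28.05 kb apart, and VH5-6 and VH5-9 are 36.2 kb apart. The RefSeq gene table at hand, of the assembly GRCm38.p6, gives all 3 as functional V segments, and their spacing from VH81X differed from it by 40, 32 and 4 bp. Between VH5-4 and VH5-9, 4698 V junctions were found, and all but 16 of them lay in VH2-3, VH5-6 and VH2-4. The gene table lists 4 pseudogenes in this stretch.

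The last 120 coding bases of each segment were read as the consensus of the sequenced joins. They are shown 5′ to 3′ on the coding strand because the joins differ at their very end, and the capitals mark the codon of the conserved cysteine.
VH5-4: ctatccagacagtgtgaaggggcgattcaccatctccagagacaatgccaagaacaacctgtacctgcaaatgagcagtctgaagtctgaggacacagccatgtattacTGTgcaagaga
VH5-6: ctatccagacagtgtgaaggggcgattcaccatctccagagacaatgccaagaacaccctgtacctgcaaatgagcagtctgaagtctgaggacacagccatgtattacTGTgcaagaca
VH5-9: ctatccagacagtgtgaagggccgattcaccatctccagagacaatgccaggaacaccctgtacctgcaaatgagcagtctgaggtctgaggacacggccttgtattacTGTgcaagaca
VH81X: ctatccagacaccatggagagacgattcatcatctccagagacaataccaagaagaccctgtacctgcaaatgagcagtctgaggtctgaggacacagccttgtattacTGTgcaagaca
These are chr12:114855361-114855480, chr12:114883413-114883532, chr12:114919648-114919767 and chr12:114836377-114836496 (mm9, reverse strand), all in the V exon. Over the last 100 bases, VH5-4 and VH5-6 were 98.0% identical, VH5-6 and VH5-9 95%, and VH5-4 and VH5-9 93%. Counted from 1 at the 5′ end of the printed bases, VH5-4 and VH5-6 differ at 2 positions, A57C and G119C. The second of these lies next to the coding end. VH5-6 and VH5-9 differ by G22C, A51G, A84G, A97G and A101T and end in the same 8 bases after the cysteine codon. Each read was matched to the consensus of all V segments, and 99.9% of VH5-4 lines, 99.6% of VH5-6 lines and 100% of VH5-9 lines matched their own segment best. Each consensus was built from the reads already placed in that segment, so high rates were likely in advance. They are no independent check of the placement. The printed letters are those of reads from these mice, while the positions are those of mm9. Segment names, spacing and placement therefore rest on reference assemblies. Whether the locus in the strain of these mice matches those assemblies was not tested.

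The 100 bases that follow the coding end were read from the few joins in the opposite orientation, and from a few reads that ran through the signal. They hold the recombination signal and, behind it, letters of the CTCF core motif, and so bear on how the members differ from VH81X. The capitals mark the heptamer, the nonamer and the CTCF core.
VH5-4: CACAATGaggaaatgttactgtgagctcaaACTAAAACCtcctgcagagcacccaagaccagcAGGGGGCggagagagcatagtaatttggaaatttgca
VH5-6: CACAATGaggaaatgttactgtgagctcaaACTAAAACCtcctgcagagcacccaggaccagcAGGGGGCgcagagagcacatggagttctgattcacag
VH81X: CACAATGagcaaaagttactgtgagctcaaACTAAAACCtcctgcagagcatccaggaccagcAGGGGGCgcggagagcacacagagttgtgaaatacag
These are chr12:114855261-114855360, chr12:114883313-114883412 and chr12:114836277-114836376 (mm9, reverse strand), intergenic bases beside the V exon. The VH5-4 consensus rests on 29 reads, that of VH5-6 on 6 reads of 4 distinct joins, and that of VH81X on 26 WT reads. No read of VH5-9 covered this stretch. The motifs searched on the printed strand were CACANTG for the heptamer, ACNAAAACC for the nonamer and AGGGGGC for the CTCF core. The heptamer CACAATG, a spacer of 23 bases and the nonamer ACTAAAACC were the same in all 3 segments. The 39 bases from heptamer to nonamer were identical in VH5-4 and VH5-6 (100%), and each was 94.9% identical to those of VH81X. The CTCF core began 63 bases after the coding end in all 3 segments. Over all 100 bases the VH5-6 flank was 90.1% identical to that of VH81X, the VH5-4 flank 84.6%, and the 2 flanks were 87.4% identical to each other. For the background both strands were searched, unlike the printed flanks. On either strand, the letters AGGGGGC were found in 18 of 50 V flanks other than those of the members (36.0%). They were found in 11 of the 11 of these nearest to VH81X, and VH81X itself was not excluded from these counts. In stretches of the same length from RefSeq promoters (GRCm38.p6) they were found in 2.70% of 32851. A match of letters is a description, not a measured binding site.

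VH5-4 was the most used of the 3 segments in both genotypes, and its share of V junctions was higher in VH81X-CBEscr/scr. It took 3.43%, 2.36% and 3.18% of V junctions in WT replicates 1 to 3, against 5.27%, 4.82%, 4.64% and 4.13% in VH81X-CBEscr/scr replicates 1 to 4. All 4 mutant libraries lay above all 3 WT libraries. The means were 2.99% ± 0.556 (SD, n = 3) and 4.72% ± 0.470 (SD, n = 4). limma-voom, fitted over all V segments, gave a log2 fold change of 0.65 (SE 0.152, 95% confidence interval 0.36 to 0.95, adjusted p 8.43e-04). By mean share VH5-4 stood directly after VH2-2 in both genotypes. Of the 129 V segments tested, 6 were called (4.65%), 5 of them higher (3.88%), and 8 (6.2%) had all mutant libraries above all WT libraries.

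VH81X is part of the denominator, so its own fall lifts every other share by arithmetic. VH81X took 9.42% ± 0.622 of V junctions in WT and 0.181% ± 0.140 in VH81X-CBEscr/scr. With VH81X left out of the denominator, VH5-4 took 3.76%, 2.60% and 3.53% in WT, against 5.29%, 4.82%, 4.64% and 4.14% in VH81X-CBEscr/scr, and the groups still did not overlap. The means were then 3.30% ± 0.615 and 4.72% ± 0.475. The log2 fold change was 0.51 (SE 0.15, limma-voom adjusted p 0.0278). In this setting 3 of 129 segments were called (2.33%), 2 of them higher (1.55%), and 4 (3.1%) separated in this way. Whether this smaller difference passed depended on which library was left out. It did not pass in 4 of the 7 fits that left out 1 library: the limma-voom adjusted p was 0.115 without WT replicate 2, and 0.111, 0.0725 and 0.163 without VH81X-CBEscr/scr replicates 1, 2 and 3, with log2 fold changes of 0.36, 0.46, 0.48 and 0.51. It passed in the other 3, with limma-voom adjusted p of 0.0182 and 0.0281 without WT replicates 1 and 3 and 0.0206 without VH81X-CBEscr/scr replicate 4, and log2 fold changes of 0.62, 0.57 and 0.58. With VH81X in the library size, VH5-4 stayed past the threshold in all 7 fits that left out a library, with log2 fold changes of 0.51 to 0.77.

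VH5-6 differs from VH5-4 by few bases and was joined less often, and its difference between genotypes did not pass the test. It took 1.67%, 1.47% and 1.76% of V junctions in WT, against 1.89%, 2.56%, 2.19% and 2.39% in VH81X-CBEscr/scr. The mutant libraries lay above the WT libraries, with replicate 1 the nearest to them. The means were 1.63% ± 0.148 (SD, n = 3) and 2.26% ± 0.287 (SD, n = 4), and the ranks were 13 in WT and 5 in VH81X-CBEscr/scr. The log2 fold change was 0.46 (SE 0.170, 95% confidence interval 0.12 to 0.79, limma-voom adjusted p 0.123). It was 0.53 (limma-voom adjusted p 0.0454) without VH81X-CBEscr/scr replicate 1. Where VH81X was not counted in the library size, it was 0.32 (adjusted p 0.398). Among V junctions other than VH81X, VH81X-CBEscr/scr replicate 1 (1.90%) fell below WT replicate 3 (1.96%), so the groups overlapped.

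VH5-9, the farthest of the 3 from VH81X, was rare in both genotypes. Its counts were 45, 9 and 43 junctions in WT, against 20, 32, 30 and 35 in VH81X-CBEscr/scr. They made up 0.267%, 0.0821% and 0.289% of V junctions in WT, against 0.166%, 0.274%, 0.230% and 0.223% in VH81X-CBEscr/scr. The groups overlapped, and WT replicate 2 stood lowest. Its 95% Wilson interval of 0.0432% to 0.156% lay below the lower bounds of the other WT libraries (0.199% and 0.214%). These intervals count repeated reads as independent and are too narrow. The 9 lines held 4 distinct junctions of 3694, against 26 of 11648 and 28 of 9675 in WT replicates 1 and 3. Whether WT replicate 2 stands apart over distinct junctions was not tested. The means were 0.213% ± 0.113 and 0.223% ± 0.0444, with rank 90 of 158 in both genotypes. The log2 fold change was 0.16 (SE 0.379, 95% confidence interval -0.59 to 0.90, limma-voom adjusted p 0.960), which spans a fall to 0.666-fold and a rise to 1.87-fold. Without WT replicate 2 it was -0.32 (limma-voom adjusted p 0.973).

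**Figure D1:**
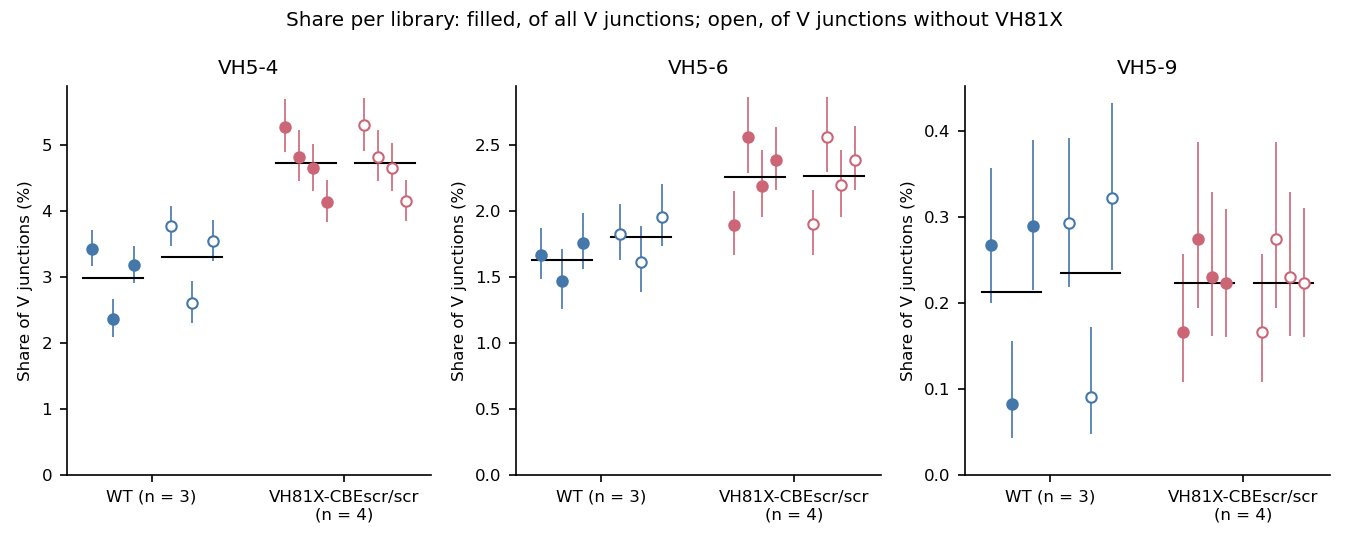
Share of V junctions (%) of VH5-4, VH5-6 and VH5-9 in each library, with WT in blue (n = 3) and VH81X-CBEscr/scr in red (n = 4). Filled points are shares of all V junctions, open points are shares with VH81X left out, bars are 95% Wilson intervals, black lines are group means, and each panel has its own axis from 0. VH5-4 separated by genotype in both denominators, VH5-6 only with VH81X counted, and VH5-9 in neither.

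Repeated reads and depth bear on these values. WT replicate 2 was lowest for each of the 3 segments and also held the fewest distinct V junctions, 3694 against 5902 to 11648 in the other libraries. A distinct junction is 1 combination of position, bait end and inserted bases. The 3762 VH5-4 lines held 1949 distinct junctions, the 1892 VH5-6 lines 954 and the 214 VH5-9 lines 118. Lines per distinct VH5-4 junction were 1.58, 3.01 and 1.63 in WT, against 2.40, 2.07, 1.82 and 1.91 in VH81X-CBEscr/scr. Over distinct junctions the log2 fold changes were 0.60 for VH5-4 (limma-voom adjusted p 2.50e-04), 0.35 for VH5-6 (0.181) and -0.07 for VH5-9 (0.977). There 5 of 118 segments were called (4.24%), 4 of them higher (3.39%). Over lines not marked as duplicates they were 0.42 (limma-voom adjusted p 0.0226), 0.31 (0.284) and -0.11 (0.963). With both duplicates and VH81X left out, VH5-4 no longer passed the threshold (log2 fold change 0.35, limma-voom adjusted p 0.0752). Of joins with at least 8 inserted bases, 0 of 1798 VH5-4 joins, 2 of 875 VH5-6 joins and 0 of 109 VH5-9 joins were found in more than 1 library, and none in both genotypes. The reads are PCR copies with no molecular identifier and are not independent molecules, so the intervals and limits given cover counting error only. The read names point to 4 sequencing runs, of which 0 held both genotypes, so run and genotype cannot be told apart.

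Within every library the members kept the same order of use. Junctions of VH5-4 outnumbered those of VH5-6 by a mean ratio of 1.97, from 1.61 to 2.79 over the 7 libraries. VH5-6 outnumbered VH5-9 by a mean ratio of 9.58, from 6.09 to 17.9, and VH5-4 outnumbered VH5-9 by 18.9, from 11 to 31.7. Each order held in 7 of 7 libraries, with a two-sided exact sign-flip permutation p of 0.0156 (0.0156 after adjustment over the 3 ratios), the smallest that 7 libraries allow. The log2 ratio of VH5-4 to VH5-6 was 0.86 ± 0.177 in WT and 1.07 ± 0.299 in VH81X-CBEscr/scr. That difference did not pass the two-sided exact permutation test over 35 splits (p 0.4, adjusted p 0.6), nor did those of VH5-6 to VH5-9 (adjusted p 0.771) and VH5-4 to VH5-9 (adjusted p 0.6), by the same exact test. These ratios do not depend on VH81X or on any denominator. The 3 segments together took 4.83% ± 0.798 of V junctions in WT and 7.20% ± 0.387 in VH81X-CBEscr/scr. The log2 difference of the summed share was 0.59 (two-sided exact permutation p 0.0286, the smallest of 35 splits), and VH5-4 supplied most of it. Unlike the ratios, this share depends on VH81X in the denominator. With VH81X left out it was 5.34% ± 0.889 in WT and 7.21% ± 0.387 in VH81X-CBEscr/scr, 1.35-fold where it had been 1.49-fold.

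The VH2 segments between them and the rest of the VH5 family set the scale of these differences. With all lines counted, the 6 segments in the first 100 kb upstream of VH81X all had positive fold changes, against 57 of all 129 segments tested. The median was 0.63 on the log2 scale, against -0.04 over the 129. Over distinct junctions 5 of the 6 were positive, and VH5-9 was at -0.07. Of the 6, 3 were called higher with all lines counted, against 5 of the 129. VH2-2, the nearest named segment upstream of VH81X, rose by 1.04 on the log2 scale (limma-voom adjusted p 1.59e-11). VH2-3, which lies between VH5-4 and VH5-6, rose by 0.61 (limma-voom adjusted p 0.00468). VH2-4, between VH5-6 and VH5-9, was rare too, with a WT mean of 0.119% ± 0.0157 and a mutant mean of 0.259% ± 0.0715. Its log2 fold change was 1.06 (limma-voom adjusted p 0.128). Where VH81X was not counted, VH2-3 did not pass (log2 fold change 0.47, limma-voom adjusted p 0.0747). There all 6 were positive, against 39 of the 129, and 2 of the 6 were called higher, against 2 of the 129.

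Segments close to the members in sequence varied in their use and in how it differed between genotypes. Of 156 V segments with a consensus, 19 were at least 85% identical to a member or VH81X over the last 100 bases. The 15 of these other than the members and VH81X had a median log2 fold change of -0.03, 6 positive and 9 negative. Of the 15, 1 was called higher, against 5 of all 129 segments tested. That segment was V_114961492, 125 kb upstream of VH81X and 98.0% identical to VH5-6, whose WT mean was 1.27% ± 0.437 and whose mutant mean was 1.91% ± 0.544. Its limma-voom adjusted p was 0.0278 at a log2 fold change of 0.60, and the call was lost where VH81X was not counted (adjusted p 0.146, log2 fold change 0.46) or duplicates were left out (0.319 and 0.31). V_115160877, which was 99.0% identical to VH5-6 and lies 324.5 kb upstream, took 0.375% ± 0.0785 in WT and 0.376% ± 0.084 in the mutant (limma-voom adjusted p 0.999). V_115180584, 98.0% identical to VH5-4 and 344 kb upstream, took 0.227% ± 0.0507 and 0.373% ± 0.128, with a log2 fold change of 0.63 that did not pass (limma-voom adjusted p 0.411). By mean share, V_114961492, V_115160877 and V_115180584 were used less than VH5-6 and VH5-4 in both genotypes. This did not hold for every relative. V_115427676, 591 kb upstream and 90.3% identical to VH5-6, took 1.90% ± 0.259 in WT, where VH5-6 took 1.63%. In the mutant it took 1.75% ± 0.108, where VH5-6 took 2.26%. VH5-9 was closest, at 97% each, to 4 segments: V_114998634, V_115015512, V_115103579 and V_115241776. Their WT means ran from 0.174% to 1.13%, and none passed the test.

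**Figure D2:**
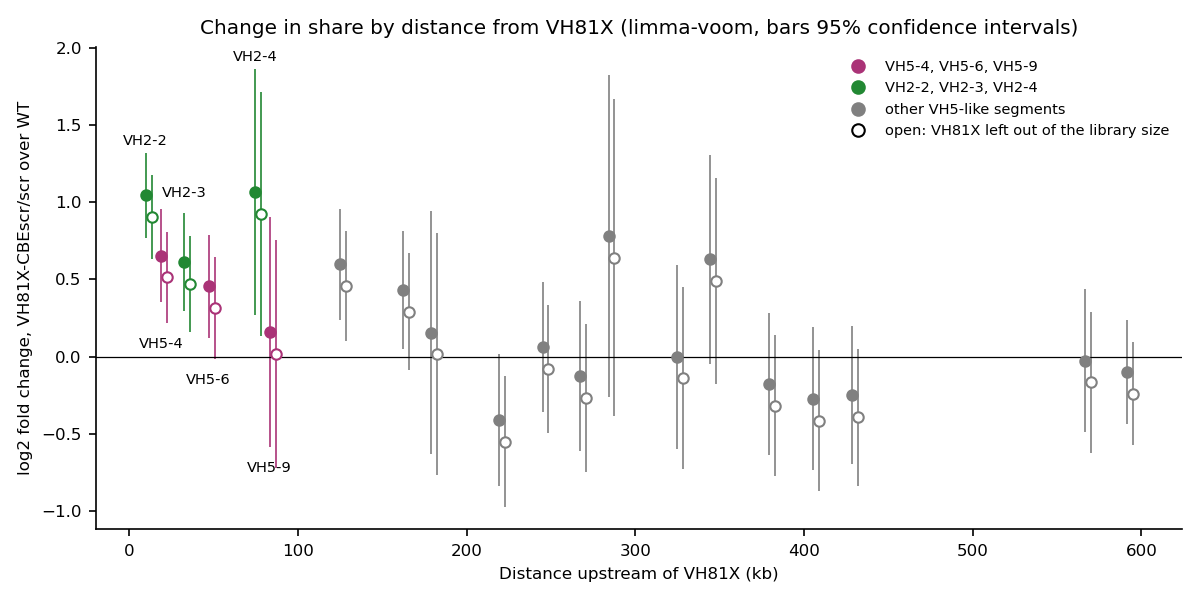
log2 fold change (VH81X-CBEscr/scr over WT) against distance upstream of VH81X (kb) for VH5-4, VH5-6 and VH5-9 (purple), the VH2 segments near them (green) and other VH5-like segments (grey), from limma-voom. Bars are 95% confidence intervals, open points have VH81X left out of the library size and are shifted to the right so that both can be seen, and VH81X and VH5-1 are not drawn. VH5-4 (0.65) and VH5-6 (0.46) lie above 0 and VH5-9 (0.16) has an interval that spans 0.

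Over the 7 libraries, the segments whose log2 share (VH81X left out) followed that of a member most closely were not always its neighbours. VH5-4 was most like VH2-2 (Pearson r 0.86), V_117124058 (0.85), 2288 kb upstream of VH81X, and VH2-3 (0.82), among 127 other segments. VH5-6 was most like V_115676764 (0.91) and V_115694901 (0.90), 840 and 859 kb upstream, and VH2-2 (0.78). VH5-9 was most like V_116285786 (0.88), V_116364678 (0.88) and V_116524676 (0.88), 1449 to 1688 kb upstream. Between members, r was 0.66 for VH5-4 and VH5-6, 0.56 for VH5-6 and VH5-9, and 0.46 for VH5-4 and VH5-9. These are descriptions over 7 points that share library depth and genotype.

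The joins of VH5-4 kept the whole germline end more often than those of VH5-6. Of distinct junctions, 52.2% in VH5-4, 35.5% in VH5-6 and 36.4% in VH5-9 lay at the germline coding end, with no V base lost. In VH5-4 the share was 51.5%, 50% and 51.7% in WT, against 50.6%, 55.0%, 53.0% and 52.4% in VH81X-CBEscr/scr. In VH5-6 it was 36.8%, 25.5% and 34.4% in WT, against 34.4%, 27.9%, 41.2% and 39.8% in VH81X-CBEscr/scr. Every VH5-4 value lay above every VH5-6 value. Within libraries the difference was 17.7 percentage points ± 5.87 (SD, n = 7), above 0 in 7 of 7 libraries, with a two-sided exact sign-flip permutation p of 0.0156 (adjusted p 0.0417 over 8 comparisons). VH5-4 lay above VH2-2 by 14.5 points ± 1.40 (SD, n = 7) with the same exact p and adjusted p. It lay above VH5-9 by 18.3 points ± 16.3, also in 7 of 7 libraries with the same p. The VH5-9 shares rest on few joins, such as 0% of 4 in WT replicate 2. In VH81X-CBEscr/scr replicate 1 VH5-9 was at 50% of 8 joins, just below the 50.6% of VH5-4. These comparisons were chosen after their values were seen, and with all lines or with duplicates left out the exact adjusted p was 0.0625 for VH5-6 and VH2-2, the raw p staying at 0.0156. In WT, 36.3% ± 1.58 of VH81X joins lay at the coding end against 51.1% ± 0.939 for VH5-4, in 3 libraries. There VH5-4 was higher in 3 of 3, and the smallest exact sign-flip p is 0.25.

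The germline ends of VH5-4 and VH5-6 differ only by G119C, next to the last base, as printed above. In VH5-6, 28.6% of distinct junctions had lost 1 base and 12.4% had lost 2, against 18.8% and 7.44% in VH5-4. Inserted bases that by chance equal the germline are counted as germline by an alignment, and with different letters at the end this can differ between segments; its part in the result was not tested. Few joins were cut deeply: 3.69% of VH5-4, 4.09% of VH5-6 and 1.69% of VH5-9 joins had lost more than the 8 bases after the cysteine codon. Joins that read past the coding end made up 4.00%, 3.25% and 2.54%. The mean number of V bases kept after the cysteine codon was 6.59 ± 0.0948 in WT and 6.67 ± 0.315 in VH81X-CBEscr/scr for VH5-4, and 6.08 ± 0.305 and 6.34 ± 0.287 for VH5-6. For VH5-9 it was 6.45 ± 0.823 and 6.21 ± 1.01. The VH5-4 joins include 1 that read 129 bases past the coding end, which raises the mean of its library. VH81X-CBEscr/scr replicate 2 had the highest VH5-4 mean, 7.13, against 6.42 to 6.58 in the other mutant libraries. The means without that join were not tested. None of the genotype differences in bases kept passed (exact permutation adjusted p 0.886 for each of the 3 segments).

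**Figure D3:**
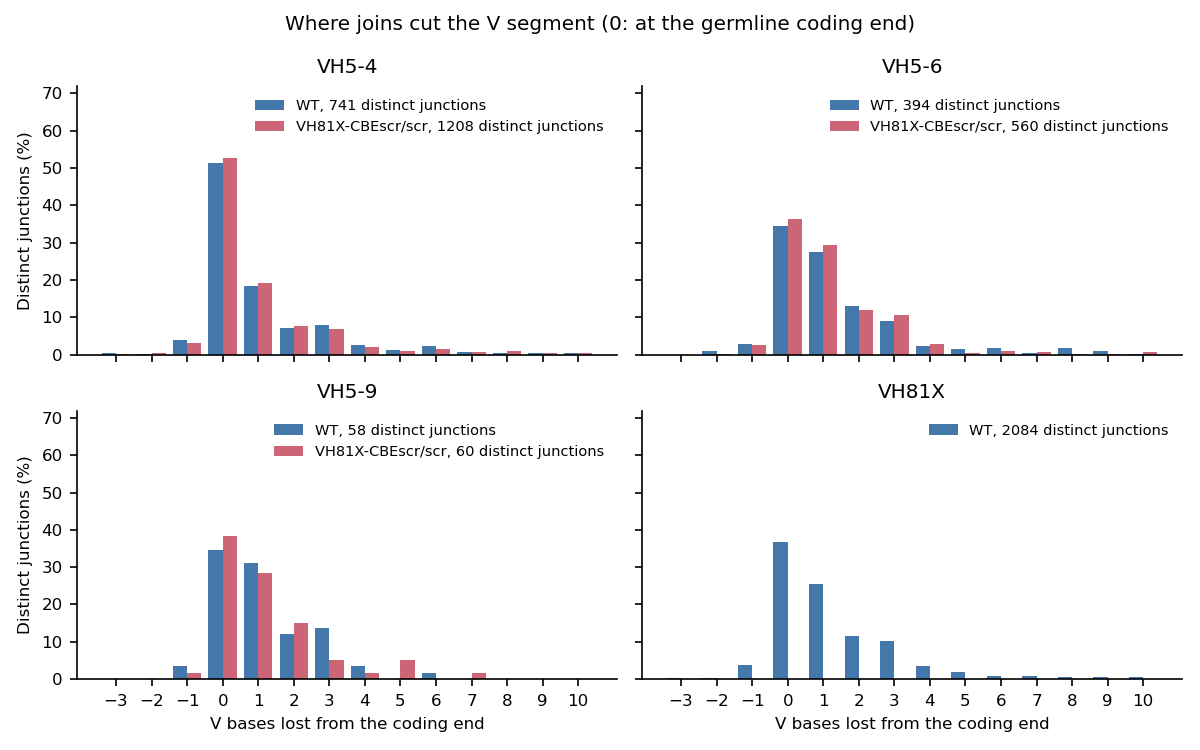
Distinct junctions (%) by the number of V bases lost from the coding end, from 3 bases past it to 10 lost, for VH5-4, VH5-6, VH5-9 and, in WT only, VH81X. Blue bars are WT and red bars VH81X-CBEscr/scr, each pooled over its libraries. VH5-4 has 51.4% and 52.7% of its junctions at 0 bases lost, and VH5-6 has 34.5% and 36.25%.

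The reading frame was set by whether the number of bases from the V cysteine codon to the JH4 tryptophan codon was a multiple of 3. In VH5-4, 776 of 1949 distinct joins (39.8%) were in frame, in VH5-6 398 of 954 (41.7%) and in VH5-9 64 of 118 (54.2%). In VH5-4 the share was 44.9%, 34.9% and 38.3% in WT, against 34.3%, 35.4%, 39.2% and 45.3% in VH81X-CBEscr/scr, so the groups overlapped. In VH5-6 it was 46.1%, 44.7% and 42.9% in WT, against 32.3%, 47.1%, 33.3% and 43.3% in VH81X-CBEscr/scr. No genotype difference passed (exact permutation adjusted p 0.914 for each of the 3 segments). Within libraries VH5-9 lay above VH5-4 by 15.7 points ± 15.3 (SD, n = 7) in 6 of 7 libraries, with an exact sign-flip permutation p of 0.0312 that was 0.0625 after adjustment over the 8 comparisons. VH5-9 had only 4 to 28 distinct joins per library.

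Some in-frame joins carried a stop codon between the cysteine and tryptophan codons. Stops were found in 149 of 750 in-frame VH5-4 joins that could be read (19.9%), 70 of 390 VH5-6 joins (17.9%) and 9 of 64 VH5-9 joins (14.1%). In WT, VH81X had 30.2% of its 2084 distinct joins in frame, and 196 of 612 of these (32.0%) held a stop codon. In the same libraries 41.2% of VH5-4 and 44.7% of VH5-6 joins were in frame, with stops in 19.5% and 15.1%. Within the 3 WT libraries VH5-6 lay above VH81X in its in-frame share by 13.2 points ± 3.5 in 3 of 3, and VH5-4 by 7.99 points ± 7.84 in 2 of 3, where the smallest exact p is 0.25. In-frame joins of the 3 members had a median of 13 codons between cysteine and tryptophan.

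**Figure D4:**
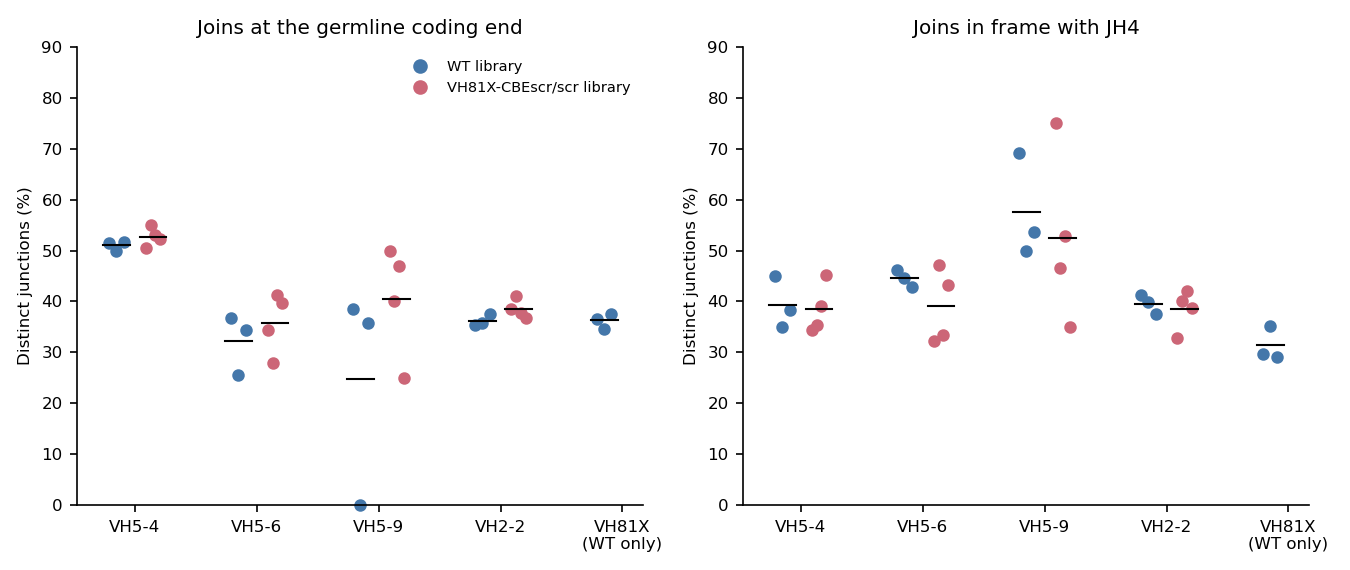
Share of distinct junctions (%) at the germline coding end (left) and in frame with JH4 (right) for VH5-4, VH5-6, VH5-9, VH2-2 and VH81X, with 1 point per library (blue WT, red VH81X-CBEscr/scr) and black lines for group means. At the coding end the VH5-4 libraries sit between 50% and 55.0%, above every VH5-6 library, while the in-frame shares of VH5-4 and VH5-6 overlap.

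Between V and bait, the joins held a median of 17 bases in VH5-4, 18 in VH5-6 and 18 in VH5-9, which come from the D segment and from added bases. The deposited junctions held at most 30 such bases, so longer inserts are not analysed here. The means were 16.8 ± 0.425 in WT and 16.9 ± 0.640 in VH81X-CBEscr/scr for VH5-4, 16.7 ± 0.886 and 16.8 ± 0.654 for VH5-6, and 15.95 ± 1.91 and 17.5 ± 0.702 for VH5-9. No genotype difference passed (exact permutation adjusted p 0.771, 0.771 and 0.429). The inserts were matched to D segments by a longest exact match of at least 8 bases. DFL16.1, the D segment farthest from JH, was matched in 9.65% ± 1.24 of the distinct joins of the 3 segments pooled and 14.5% ± 0.870 of all other V joins (SD, n = 7). The pooled share ran from 8.37% to 11.2%, and that of other V joins from 13.2% to 15.4%, so the pool lay lower in 7 of 7 libraries. VH5-4 and VH5-6 made up most of the pool, at 9.90% and 8.81% over all libraries, while VH5-9 was at 14.4% of its 118 distinct joins, close to the other V joins. DQ52, the D segment nearest JH, was matched in 1.66% ± 0.971 and 1.51% ± 0.147. Other D segments were matched in 53.2% ± 4.20 and 50.3% ± 1.1, and 34.7% ± 3.72 and 32.7% ± 0.393 had no match. This is a description chosen after the values were seen. The members' D shares did not differ between genotypes past the exact permutation test (adjusted p from 0.667 to 0.886).

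A few joins at the members ran the other way, with the bait joined to the signal side of the cut, an arrangement known as a hybrid joint. VH5-4 had 32 lines in this orientation in 20 distinct joins, 0.851 per 100 lines in deletional orientation, and 28 of the lines gave the flank printed above. The 32 lines numbered 4, 0 and 2 in WT, against 7, 0, 13 and 6 in VH81X-CBEscr/scr, and the groups overlapped. VH5-6 had 6 lines in 4 distinct joins, 0.317 per 100. VH5-9 had 0 beside its 214 lines, which allows up to 1.40 per 100 (3 counts), so fewer such joins than in VH5-4 could not be told at this depth.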

How the data were processed

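HTGTS junctions of 3 WT and 4 VH81X-CBEscr/scr pro-B cell libraries were analysed. Bowtie2 and the genome build mm9 are named in the submitters' processing notes, and the version of Bowtie2 is not given in the sources used here. Per the file headers, each deposited line is 1 junction with position, strand, bait end, sequence and a duplicate mark. The authors deposited no counts, so lines were counted here, and lines marked as duplicates were kept; they made up 56.4% to 74.7% of V junctions. Depth ran from 31986 to 46915 junctions per library, of which 10961 to 16874 were V junctions, where a count of 0 allows a share of up to 0.0178% to 0.0274% (3 counts).

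Lines in deletional orientation were grouped into V segments (gaps of at most 300 bp, at least 10 junctions). Of the 95203 V junctions, 247 fell in no segment but stayed in the library size. Prey bases were matched to segment consensus sequences with bwa 0.7.19. Genotypes were compared with limma-voom (limma 3.58.1, R 4.3.3) over 129 V segments with a mean of at least 10 junctions in either genotype, with genotype as the only term. In this fit the residual variance was pooled fully over the segments, so a segment's own spread among libraries did not set its p-value. Adjusted p-values are Benjamini-Hochberg values over all segments tested, with a threshold of 0.05. Single values were compared by two-sided exact tests (Python 3.11.15, SciPy 1.17.1, pandas 2.3.3). In data simulated for this comparison, with 20 of a median of 127.5 segments changed in each of 20 draws, limma-voom recovered 68.9% of 2-fold and 98.5% of 4-fold changes, and 5.46% of calls were on unchanged segments. All simulated segments had the same dispersion, set in advance, and no run effect. These rates therefore need not hold for the real libraries. Changes under 2-fold were not simulated.

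The members, VH81X and VH2-2 were named by rule, together with the 6 segments within 100 kb upstream of VH81X, the 3 segments most correlated with each member, and VH5-like segments that were called or closest in sequence. The members, lists and tests were chosen with earlier results of these data known. Alternatives were the library size, duplicate marks, distinct junctions, TMM scaling, the count filter, voom weights, own-segment matches, a replicate block and leaving out each library. Replicate numbers did not pair the libraries. Positions are those of the files, and a genome of that build was not used here.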

Additional observations from a re-analysis of the deposited data

Results flagged for a closer look

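Of 24 values tested for a library far from the others among the 4 VH81X-CBEscr/scr libraries, 1 stood apart. In VH5-6 joins, the mean number of V bases kept after the cysteine codon was 5.91 in VH81X-CBEscr/scr replicate 2, below the other 3 mutant libraries. The gap to the nearest of them was 0.872 of the group's whole range. Chance marks about 1 in 20 such groups. The same library also had the lowest share of VH5-6 joins at the coding end among the mutant libraries, 27.9%.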

How the results depend on the processing

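VH5-4 was higher in VH81X-CBEscr/scr in 19 of 19 alternatives and stayed past the threshold in 17 of them, with log2 fold changes of 0.35 to 0.77. It did not pass with VH81X and duplicates both left out (0.35, limma-voom adjusted p 0.0752) or with a replicate block over replicates 1 to 3 (0.72, adjusted p 0.0889). Where VH81X was not counted in the library size, leaving out 1 library gave 0.36 to 0.62. VH5-4 passed in only 3 of these 7 fits, which are not among the 19. VH5-6 did not pass in 18 of 19 alternatives and passed without VH81X-CBEscr/scr replicate 1, with 0.23 to 0.53 over all 19 and 0.39 to 0.53 when 1 library was left out. VH5-9 did not pass in any of 18 (-0.32 to 0.45), and a mean of at least 50 junctions left it out of the fit. The 6 V segments called became 3 with VH81X left out, 2 with duplicates also left out and 2 with the replicate block. They became 7 with TMM scaling and 9 without VH81X-CBEscr/scr replicate 1. The replicate numbers do not warrant the block: deviations of same-numbered libraries correlated by -0.29, -0.01 and 0.13. The summed share passed in the 4 alternatives with all libraries, and its log2 difference was 0.41 to 0.67 over all 12 alternatives. Without 1 library its log2 difference was 0.44 to 0.67, and 0.62 in the replicate block (exact permutation p 0.25), designs that cannot reach the threshold. The share of joins at the coding end in VH5-4 exceeded that of VH5-6 by 17.9 points with all lines counted, 16.4 with duplicates left out and 16.2 to 18.7 without 1 library, and that of VH2-2 by 13.4, 14.3 and 14.2 to 14.9 (chosen after seeing the data; adjusted p 0.0625 to 0.0833). Rare segments limit the depth: VH5-9 had 9 junctions in WT replicate 2.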
